A study of Mus musculus with 12 samples.

Results

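The response of unloaded peritoneal macrophages to lipopolysaccharide was read from 6 poly(A) RNA-seq libraries, 3 from LPS-stimulated cells and 3 from untreated Control cells. Unloaded here means that neither group was given oxidized LDL. By design the groups differ by the addition of LPS, a bacterial outer membrane glycolipid used as an ultrapure preparation at 10 ng/ml. All genes with a normalized count of at least 10 in at least 3 of these 6 libraries were included, which kept 13006 of the 43278 symbols in the table of the series. The whole series has 12 libraries, and the other 6 came from cells loaded with oxidized LDL.

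The cells of every group were elicited with thioglycolate in wild-type C57BL/6J mice of 8 to 12 weeks of age, washed from the peritoneal cavity 4 days later, and kept as the adherent fraction after 18 h in culture. The methods describe 1 pool of cells from both sexes as the source of the 4 groups, and by that description a library does not stand for a single animal. The sex-linked transcripts given below differed between libraries of one number, so the description may not hold for every library. The methods bound LPS treatment at up to 6 h in one place and at up to 3 h in another, and neither they nor the labels say how long the cells of these libraries were treated. Elicited macrophages are recruited inflammatory cells, and they differ from the resident cells of an unchallenged cavity.

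LPS is held by CD14 and is sensed by TLR4 together with its partner MD-2. The adaptor MyD88 then leads to the kinases that free NF-kB and drive AP-1, while the adaptor TRIF leads to IRF3 and to interferon beta, which acts back on the cells through STAT2 and IRF9. Macrophages are known to answer LPS with waves of cytokine genes, feedback inhibitors and interferon-stimulated genes, and to change their metabolism as they do so.

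A normalized count is the number of read pairs assigned to a gene, divided by one scaling factor per library. Library totals were 17152972 to 17709731 normalized counts in Control and 22590678 to 26384551 with LPS, and the spacing of the low values gave an estimate of 18600000 to 26200000 reads per library before that scaling, in ranges that overlap between the groups. The macrophage markers Cd68, Csf1r and Lyz2 were abundant in all 6 libraries. Markers of other cells were low but some moved with LPS. The summed value of 11 T and NK cell markers was 39 to 61 in Control and 122 to 252 with LPS, with Ncr1 and Gzma at 0, Cd3e at most 2 and 1 of the 2 tested, Lck, higher. That of 10 neutrophil markers was 83 to 106 and 83 to 181, with Ly6g at 0, Mpo at most 5, and of the 2 tested S100a8 higher and Cxcr2 lower. For 9 B cell markers it was 217 to 355 and 173 to 309 with none of 6 called, and for 8 dendritic cell markers 129 to 155 and 137 to 247 with 1 of 3 higher and 1 lower. For 11 eosinophil and mast cell markers it was 378 to 451 and 199 to 225, with Prg2 at 0 and, of 5 tested, Kit higher and Siglecf lower. Large peritoneal macrophage markers, the genes of the resident cells, summed to 13335 to 14282 and 4469 to 5699, most of it Cd93, with 3 of 10 higher and 2 lower. The part of these cells in the results below was not tested, and in bulk libraries fewer cells of a type and less RNA per cell cannot be told apart. Fibroblast and mesothelial genes were present, and of 13 tested 1 was called higher with LPS and none lower (3 and 2 with the replicate block). Their values varied widely among the libraries of both groups. For example, the collagen gene Col1a1 was 9735, 6937 and 2054 in Control and 12012, 5517 and 1965 with LPS, and the summed value of the 14 genes of that list was 5978 to 25600 in Control and 7393 to 33030 with LPS. Sex-linked transcripts differed between libraries of one number: Xist, made from the inactive X chromosome of females, was 1, 6730 and 3538 in Control and 6331, 7751 and 4217 with LPS, and the Y-linked Ddx3y was 1156, 0 and 707 and 459, 2 and 733. Control replicate 1 was therefore without Xist while LPS replicate 1 was not, and the part of sex in the results below was not tested beyond leaving out each library.

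LPS changed the level of 8025 of the 13006 genes tested. In a limma fit on log2(normalized count + 1), 4087 genes were higher with LPS (31.4% of those tested) and 3938 were lower (30.3%) at a Benjamini-Hochberg adjusted p under 0.1. Of these, 1896 were higher by at least 2-fold (14.6%) and 1783 were lower by at least 2-fold (13.7%). In 1868 of the 1896 every LPS library lay above every Control library, and in 1737 of the 1783 every LPS library lay below. Over all genes tested, 32.1% lay above without overlap and 31.1% below. Rises reached further than falls. A change of at least 16-fold was called for 321 higher genes and 40 lower genes, and a change of at least 64-fold for 111 higher genes and 1 lower gene. The size of a fall is bounded by the Control level, whereas a rise has no such bound. Of the genes that fell at least 2-fold, 305 had an LPS mean under 10, and of those that rose, 366 had a Control mean under 10.

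**Figure D1:**
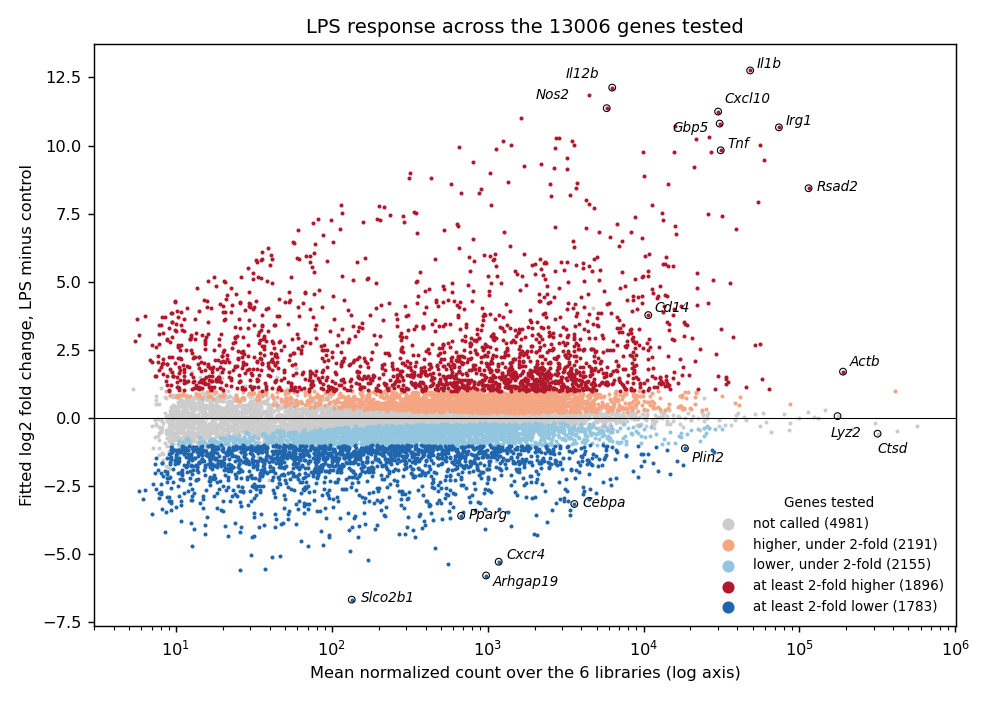
Fitted log2 fold change of each gene (LPS minus Control) against its mean normalized count over the 6 libraries, with genes coloured by class and some named. The 111 genes that rose at least 64-fold, among them Il1b, Irg1 and Rsad2, lie at the top, and Slco2b1 is the 1 gene called lower by at least 64-fold.

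Many genes were held in place. For 6254 genes (48.1%) the 95% confidence interval of the fold change lay within 2-fold in either direction, and 3401 of these were not called at all. A further 1580 genes (12.1%) were neither called nor held, so that their interval was too wide to place them. Precision differed with abundance: the median standard error of the log2 fold change was 0.35 for genes with a Control mean of 10 to 100 and 0.11 for those of 1000 to 10000, and 18.2% and 63.9% of these genes were held. Genes with a Control mean under 10 owed their place mostly to the LPS libraries, and 366 of 512 were in the class that rose at least 2-fold, which reflects the filter and is no result about weakly expressed genes.

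The split between higher and lower calls rests on the scaling factors. As deposited, the median log2 fold change over all genes was 0.00 and 50.9% of calls were higher. When the 6 libraries were instead rescaled to the same total, the median moved to -0.48, and 2207 genes were higher and 7189 lower, so that 23.5% of calls were higher. All 1783 genes of the class that fell at least 2-fold remained in it under that scaling, and 1309 of the 1896 that rose at least 2-fold did. Whether an LPS-stimulated cell held more RNA than a Control cell was not measured, and the values below are on the deposited scale unless the other is named.

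The library total was redistributed toward the induced genes. The 1896 genes that rose at least 2-fold held 9.93%, 9.87% and 9.7% of all normalized counts in the Control libraries and 36.8%, 36.9% and 40.6% in the LPS libraries. The 1783 genes that fell at least 2-fold went from 10.2% ± 0.252 (SD, n = 3) to 2.41% ± 0.27 (SD, n = 3). Held genes took 58% ± 0.132 in Control and 43.3% ± 1.47 with LPS, although their summed normalized counts were 9922804 to 10288355 and 9897963 to 10955657, which overlap.

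**Figure D2:**
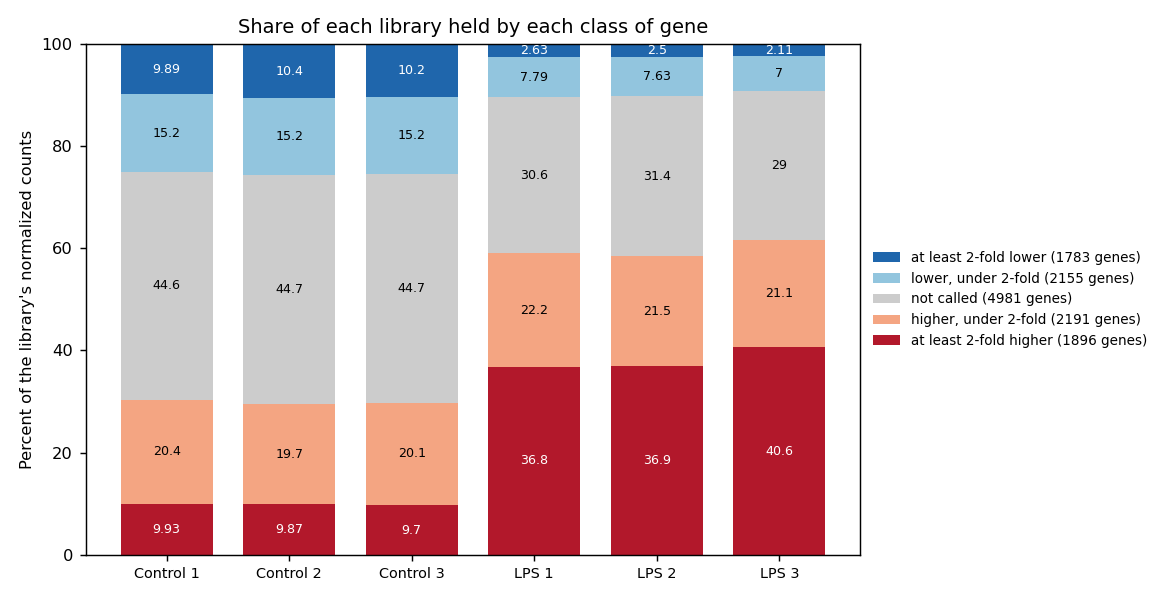
Percent of each library's normalized counts that fell on genes of each class, for the 3 Control and 3 LPS libraries. The class that rose at least 2-fold grows from 9.7 to 9.93% in Control to 36.8 to 40.6% with LPS, at the expense of every other class except the genes that rose by less than 2-fold.

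The response was then described by gene class, over 51 lists that run from sensing to cell identity and 9 lists of cell type or sex markers. In the counts that follow, 31.4% of all genes tested were called higher and 30.3% lower, and the median log2 fold change of all genes was 0.00.

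**Figure D3:**
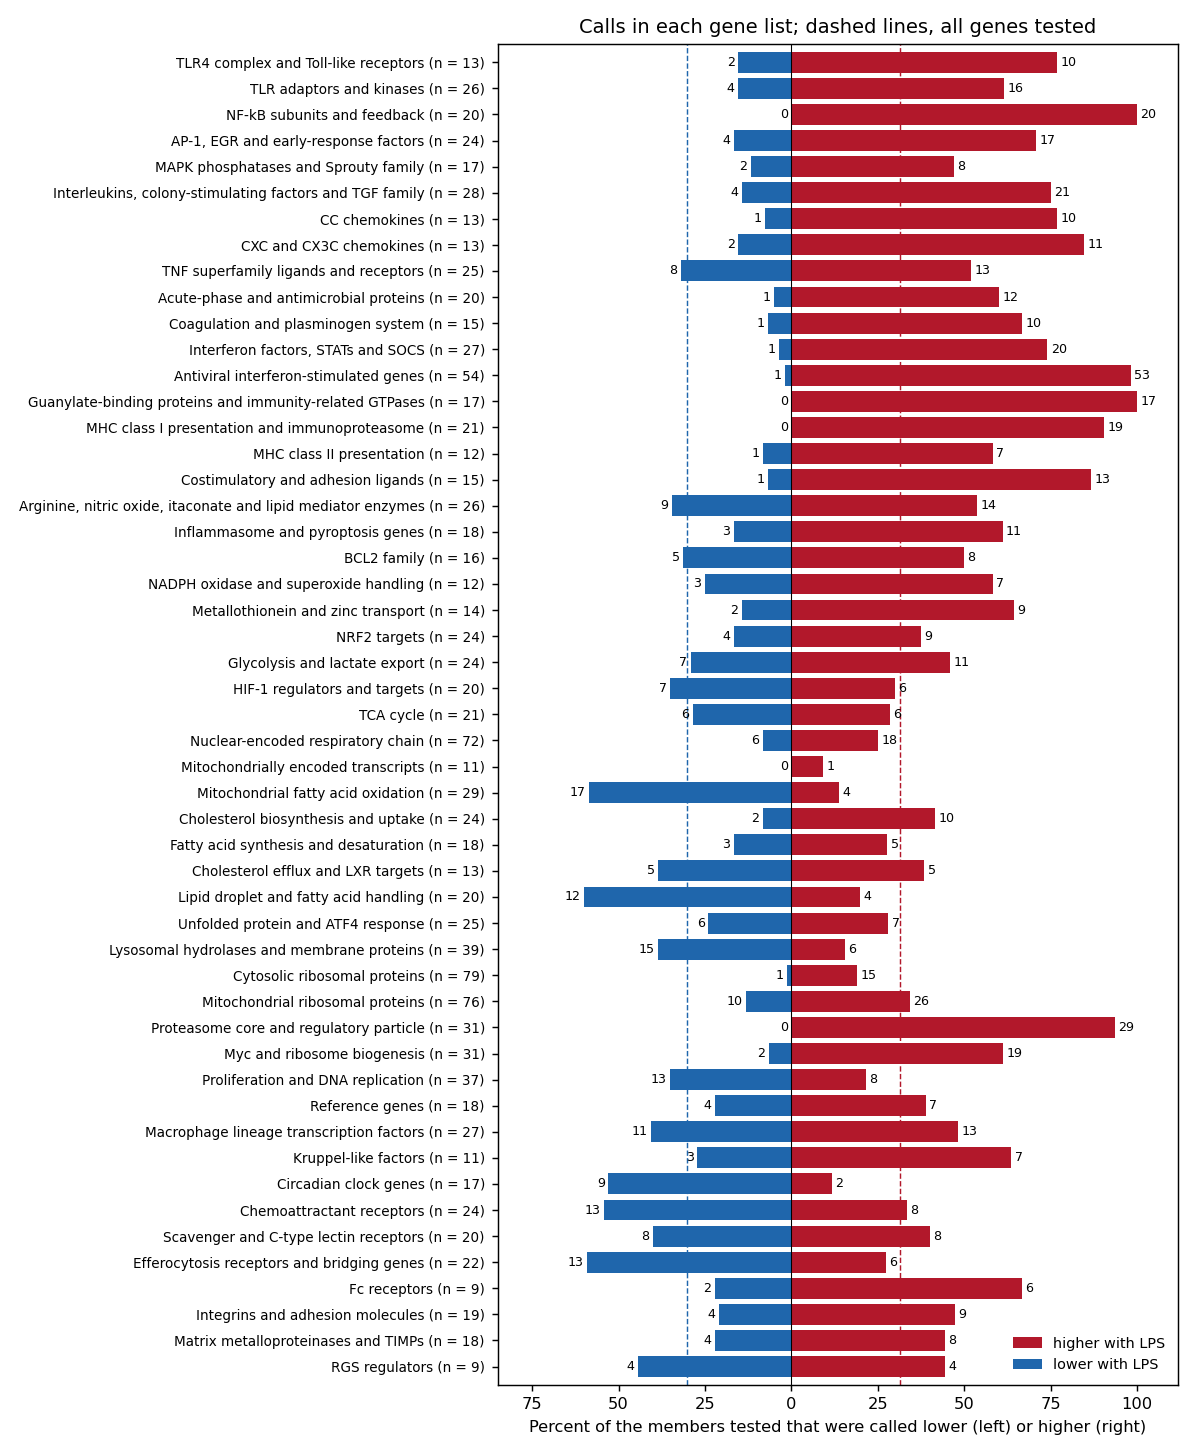
Percent of the tested members of each gene list that were called lower (blue, left) or higher (red, right) with LPS, with the number of genes at the end of each bar and the percentages over all 13006 genes as dashed lines. The NF-kB, guanylate-binding protein and antiviral lists reach or approach 100% higher, while fatty acid oxidation, lipid droplet and efferocytosis genes have the largest shares of lower calls.

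The LPS receptor complex itself changed unequally. Cd14, which hands LPS to the receptor, was 1583, 1314 and 1448 in Control and 17104, 19390 and 23478 with LPS, a log2 fold change of 3.78 ± 0.14 (SE; adjusted p = 6.15e-07). Tlr4 was 1383, 1445 and 1525 and 968, 1424 and 1085, and its small fall of 0.34 on the log2 scale (adjusted p = 0.0799) stayed within 2-fold although 1 LPS library lay among the Controls. Ly96, which encodes MD-2, rose by 0.38 ± 0.14 on the deposited scale and was -0.10 after rescaling to the same total. The other Toll-like receptors were redistributed. Tlr2, the receptor for lipoproteins, went from 419, 583 and 456 to 10826, 27016 and 19967, and Tlr3, the receptor for double-stranded RNA, from 171, 212 and 232 to 3461, 4761 and 3906. Tlr1, Tlr6, Tlr7 and Tlr8 rose as well, by 1.68 to 2.91 on the log2 scale. Tlr13, which senses bacterial ribosomal RNA, fell from 7089, 8123 and 8338 to 4239, 3397 and 3820. In all, 10 of 13 tested members of this list were higher and 2 lower.

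Of 26 adaptors and kinases downstream of the receptors, 16 were higher and 4 lower (12 and 8 after rescaling). Myd88 itself rose from 592, 657 and 612 to 3582, 4129 and 4298 (2.69 ± 0.10), while Ticam1, which encodes TRIF, was 1233, 1206 and 1201 and 1088, 1117 and 1291, overlapping, with a 95% interval of -0.28 to 0.16. Irak3, a kinase-like inhibitor of the pathway, rose from 497, 559 and 524 to 3391, 2962 and 3611, Irak2 rose by 1.23 ± 0.15, and Irak1 and Irak4 fell by 0.55 and 0.39, both within 2-fold. The genes of the kinases that activate IRF3 also rose, with Tbk1 going from 1511, 1523 and 1686 to 4292, 4070 and 5014 and Ikbke from 2685, 2872 and 2988 to 11007, 9802 and 12009, and Irf3 did not, at 815, 822 and 891 and 652, 854 and 776. The ubiquitin ligase gene Peli1 and the kinase gene Ripk2 rose furthest in the list, by 3.28 ± 0.14 and 3.26 ± 0.23.

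All 20 NF-kB subunit and feedback genes tested were higher with LPS, 18 of them by at least 2-fold, with a median log2 fold change of 2.92. Among subunits, Nfkb2 rose from 857, 852 and 707 to 15638, 22715 and 27671, Nfkb1 from 1447, 1629 and 1573 to 11275, 15394 and 17480, and Rela, the smallest rise of the 5, from 1694, 1785 and 1806 to 4300, 5853 and 5753. Several inhibitors rose as well. Nfkbia, whose product holds NF-kB in the cytoplasm, was 548, 538 and 571 in Control and 21097, 16242 and 25043 with LPS (5.21 ± 0.15; adjusted p = 2.91e-07), Nfkbiz was 183, 150 and 125 and 6940, 6741 and 10334, and Tnfaip3, which encodes the deubiquitinase A20, was 843, 974 and 880 and 18958, 18506 and 28578. No LPS library of these genes overlapped with Control. Tnip2 had the smallest change of the list, at 0.63 ± 0.12, and it is the only member that lost its call when libraries were rescaled to the same total.

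Early-response transcription factors did not move as a block, since 17 of 24 were higher and 4 lower. Within AP-1, Junb rose from 1775, 1807 and 1958 to 9361, 10434 and 11275 and Batf from 90, 95 and 96 to 996, 862 and 1312, whereas Jun fell from 4855, 5185 and 4433 to 2288, 1572 and 1489 and Fos from 437, 292 and 425 to 245, 94 and 105. The groups of Jun and Fos did not overlap. Egr1, an immediate-early factor, was 146, 122 and 98 and 159, 133 and 72 and was not called, and Atf3, a stress-induced factor, was called at 0.35 ± 0.13 and was -0.13 after rescaling. Batf2 and Nr4a3 rose furthest, by 5.83 ± 0.27 and 5.88 ± 0.55. Among 17 MAPK phosphatase and Sprouty-family genes, 8 were higher and 2 lower (7 and 4 after rescaling): Spred1, an inhibitor of Ras signalling, rose from 839, 670 and 702 to 8963, 9017 and 10144, Dusp1 reached only 0.56 ± 0.20 and was not called after rescaling (0.07), and Dusp3 fell from 5285, 6191 and 5628 to 1579, 2392 and 1731.

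Cytokine genes were among those that rose furthest. Il1b, the gene of interleukin 1 beta on chromosome 2 of GRCm38 (from 129364570 to 129371139), was 20, 11 and 7 in Control and 51068, 85645 and 152939 with LPS, a fitted log2 fold change of 12.76 ± 0.45 (SE; adjusted p = 5.61e-07), or 6920-fold. Il1a was 359, 467 and 342 and 41095, 136940 and 146652, and Tnf was 68, 61 and 63 and 36687, 65418 and 85240. No LPS library of these genes came near a Control library, and LPS replicate 1 was the lowest of its group for each. Il6 and the IL-12 subunit genes were nearly absent from Control: Il6 was 2, 1 and 0 and 2135, 9776 and 14906, Il12b 1, 2 and 1 and 4078, 12312 and 21389, and Il12a 0, 0 and 1 and 965, 3510 and 5363. Where Control values are this low, for these and for the other genes below with a Control mean under 10, the fitted change depends on the pseudocount, and that of Il6 was 11.87 ± 0.72 with a pseudocount of 1 and 9.27 with 10. The order of the largest rises depends on it too, since with 10 Cxcl10 was 10.77 and Cxcl2 10.11. Il23a, Il27, Il15 and Il18 rose too, Il27 from 16, 13 and 28 to 3674, 6497 and 12035 and Il18 from 72, 87 and 96 to 909, 1160 and 1550.

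Cytokines with restraining functions were also higher. Il1rn, the gene of the receptor antagonist that blocks interleukin 1, rose from 4422, 2527 and 2983 to 35067, 32859 and 36214, and Il18bp, whose product binds interleukin 18, from 101, 78 and 88 to 937, 658 and 918. Il10 was low in every library, with 4, 3 and 1 in Control and 136, 18 and 64 with LPS (4.01 ± 0.73). Interferon beta transcript was rare at the time sampled: Ifnb1 was listed at 0 in every Control library and at 8, 5 and 13 with LPS, below the level needed for a test, as was Csf2 at 2, 43 and 20. The 4 members that fell were Il16, Vegfa, Igf1 and Pdgfb, and Vegfa, the main growth factor of vessels, went from 1580, 2681 and 1799 to 1266, 1270 and 429. Over the list of interleukins, colony-stimulating factors and TGF family genes, 21 of 28 were higher and 4 lower (20 and 6 after rescaling), and the median was 3.32.

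LPS replicate 1 held the lowest LPS value of 13 of the 20 members of this list that rose at least 2-fold, of 32 of 52 antiviral genes described below, and of 981 of all 1896 genes of that class. LPS replicate 3 held the highest value of 12, 48 and 1148 genes of these sets. The order was not the same in every list. Replicate 1 was highest for 7 of 12 acute-phase genes and lowest for 3, and of 10 CXC and CX3C chemokines replicate 1 was lowest for 4 and replicate 2 for 5. The median coefficient of variation over the 3 LPS libraries was 52.7% for the 20 cytokine genes, 46.8% for CXC and CX3C chemokines, 45% for acute-phase genes and 38.4% for CC chemokines. It was 16.8% for the antiviral genes and 18.3% for the whole class.

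**Figure D4:**
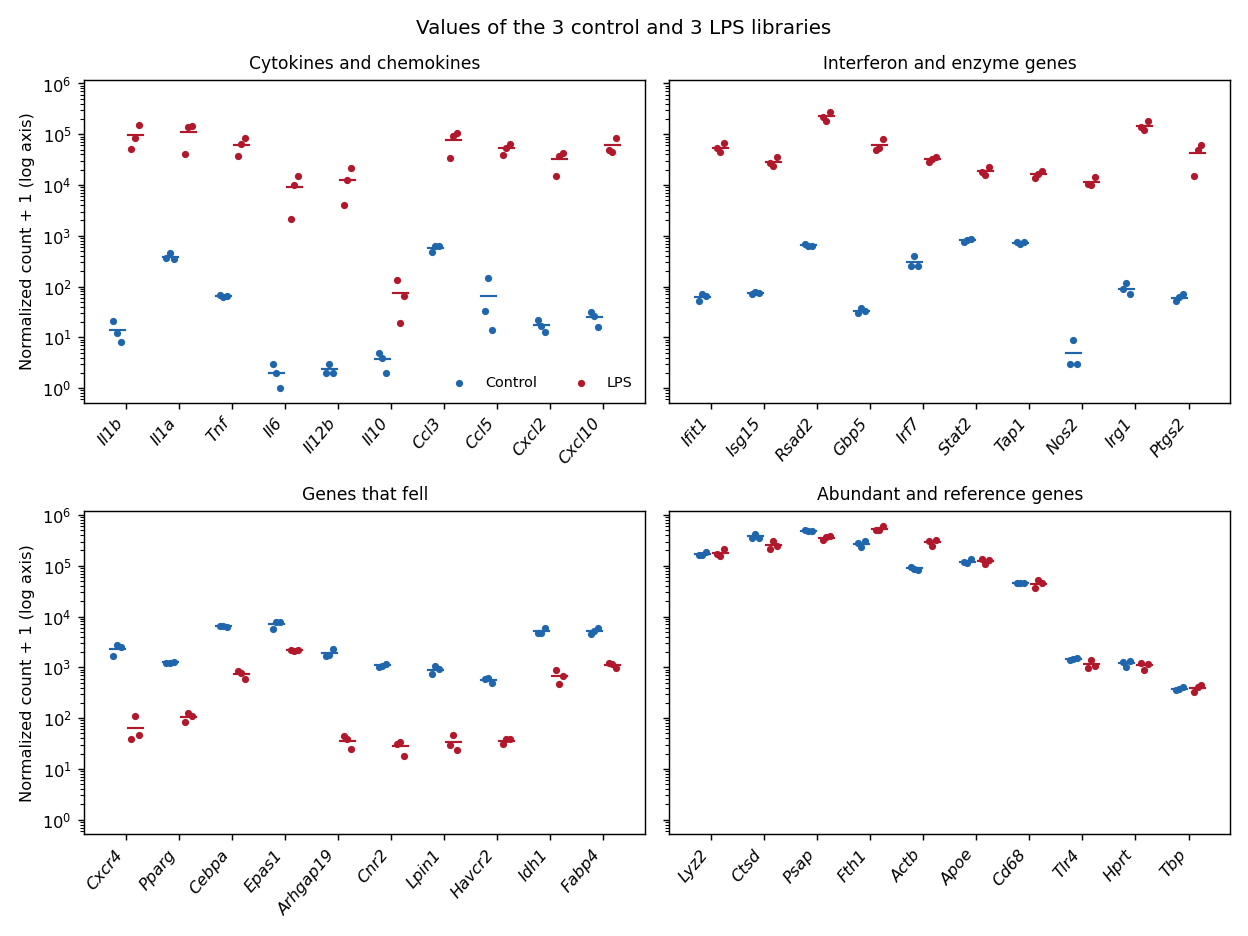
Normalized count plus 1 on a log axis for single genes in the 3 Control (blue) and 3 LPS (red) libraries, with the group mean as a line. Il1b, Rsad2 and Irg1 are far apart between the groups, and the groups of Lyz2, Hprt and Tbp overlap.

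Chemokine genes of both families rose, 10 of 13 CC and 11 of 13 CXC or CX3C genes. Their median log2 fold changes were 6.03 and 3.03. Ccl5, which attracts T cells and monocytes, was 32, 145 and 13 in Control and 38551, 54765 and 65284 with LPS. Ccl3 and Ccl4, which attract monocytes and T cells, were 489, 624 and 614 and 34668, 93916 and 104907, and 180, 175 and 195 and 12248, 16622 and 28877. Ccl2, the main monocyte attractant, was 284, 155 and 93 and 8418, 20076 and 12454. These groups lay far apart. Ccl8 rose much less, from 14, 28 and 14 to 35, 49 and 40 (1.17 ± 0.34), a call lost after rescaling (0.70, adjusted p = 0.107), and Ccl6 was not called, at 7569, 5864 and 9366 and 13207, 6662 and 10925 (adjusted p = 0.242, and 0.0357 with the replicate block). Ccl12 and Cxcl11 were listed at 0 in every Control library and reached 219, 110 and 161 and 175, 79 and 202 with LPS. The members that fell were Ccl27a, by 0.95 on the log2 scale, Cxcl14, from 171, 259 and 199 to 85, 86 and 48, and Cxcl12, from 513, 370 and 159 to 256, 127 and 71, whose groups overlap.

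The neutrophil attractants Cxcl1, Cxcl2 and Cxcl3 are neighbours on chromosome 5 and rose together, to log2 fold changes of 7.72 ± 0.61, 10.73 ± 0.40 and 10.29 ± 0.50. Cxcl2 was 21, 16 and 12 in Control and 14747, 37346 and 43478 with LPS. A stretch of each promoter is shown because all 3 hold the same match to the kB consensus, the site bound by NF-kB. The stretches run from 120 to 41 bases before the RefSeq start on the + strand of GRCm38.p6 (chr5:90891125-90891204, chr5:90903779-90903858 and chr5:90785981-90786060), and capitals mark the match, in which overlapping matches of both strands join.
Cxcl1: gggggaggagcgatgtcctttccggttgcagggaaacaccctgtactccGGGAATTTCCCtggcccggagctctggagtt
Cxcl2: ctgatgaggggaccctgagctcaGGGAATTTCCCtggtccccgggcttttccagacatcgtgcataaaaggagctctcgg
Cxcl3: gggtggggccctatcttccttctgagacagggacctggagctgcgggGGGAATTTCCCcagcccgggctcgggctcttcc

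Nfkbia carries a match of the same kind next to its start. The 80 bases before its start on the - strand (chr12:55492648-55492727) are given for comparison, with the match in capitals.
Nfkbia: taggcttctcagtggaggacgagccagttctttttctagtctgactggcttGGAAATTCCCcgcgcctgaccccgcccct

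The TNF superfamily divided into members that rose and members that fell. Of 25 tested, 13 were higher and 8 lower. Tnfsf9 and Tnfsf15, ligands that costimulate T cells, went from 25, 31 and 12 to 2102, 2809 and 2710 and from 6, 7 and 4 to 2763, 4397 and 6004, and Cd40, the receptor through which T cells license macrophages, from 39, 41 and 37 to 14731, 16081 and 29100. Tnfrsf1b, a receptor of TNF, rose from an already high 14612, 14167 and 15455 to 86052, 91097 and 114747. Tnfsf12 fell from 2359, 2611 and 2356 to 659, 854 and 750, and Tnfrsf21 from 2016, 2073 and 1851 to 762, 577 and 510. None of these groups overlapped.

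Acute-phase and antimicrobial genes were higher in 12 of 20 and lower in 1 (11 and 3 after rescaling). Lcn2, which withholds bacterial iron carriers, was 13, 15 and 15 and 2454, 853 and 1513, Cfb, a factor of the alternative complement pathway, 6, 6 and 4 and 763, 532 and 790, and Saa3 1638, 2166 and 2821 and 40722, 11820 and 27607. The C1q genes and the lysozyme gene Lyz2 were not called, with Lyz2 at 161969, 161858 and 188038 and 166971, 158501 and 215646. In the coagulation list 10 of 15 were higher and 1 lower (11 and 2 with the replicate block, 9 and 3 after rescaling). F10, the factor X gene, rose from 1882, 2639 and 2427 to 27875, 52192 and 45973. Thbd, whose product thrombomodulin restrains thrombin, fell from 692, 794 and 734 to 87, 51 and 24 (-3.93 ± 0.40).

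Interferon-stimulated genes rose almost without exception. Of the 54 antiviral interferon-stimulated genes tested, 53 were higher, 52 of them by at least 2-fold, and 1 was lower, with a median log2 fold change of 5.01. Rsad2, the viperin gene, was 683, 639 and 628 in Control and 222362, 184911 and 277258 with LPS (8.43 ± 0.15; adjusted p = 7.29e-08). Ifit1, which binds foreign RNA, was 50, 70 and 63 and 52365, 44422 and 66425, and Mx1 35, 39 and 27 and 44596, 29160 and 55637. Isg15, a ubiquitin-like modifier, was 69, 76 and 72 and 26673, 23762 and 36094, and Ifi44 went from 1, 1 and 4 to 2664, 2835 and 2992. The oligoadenylate synthetase genes Oas1a and Oas3 rose by 3.74 ± 0.12 and 4.01 ± 0.14. Tmem173, which encodes STING, was called at 0.42 ± 0.18 with groups that overlap (504, 558 and 485 and 678, 896 and 543), and was -0.06 after rescaling.

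Guanylate-binding proteins and immunity-related GTPases, which attack the vacuoles of intracellular microbes, were all higher, 17 of 17, with a median of 6.82. Gbp5 was 29, 37 and 32 and 48974, 54021 and 81540, Gbp2 237, 354 and 272 and 43130, 55814 and 55769, and Tgtp2 12, 12 and 12 and 5011, 3920 and 6163. The Gbp, Ifit, Oas, Slfn and Tgtp families hold near-identical copies among which reads can be shared, so values of single members are less certain than the direction of the family, which was the same under both scalings.

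Transcription factors of the pathway rose in part. Irf7 rose from 252, 395 and 248 to 27979, 33006 and 34833, Irf1 from 427, 450 and 602 to 13589, 16008 and 22144 and Stat2 from 743, 840 and 870 to 17873, 15780 and 22128. Irf8, a lineage factor, was 3058, 3057 and 3314 and 2918, 2836 and 5162 and was not called. Ifnar1 and Ifnar2, the receptor chains for type I interferon, rose by 1.73 ± 0.14 and 1.65 ± 0.15, and Ifngr1, a chain of the interferon gamma receptor, fell by 0.57, within 2-fold. Inhibitors of the pathway rose by more than its receptors: Socs3 went from 201, 164 and 116 to 15661, 11034 and 16698, Socs1 from 11, 19 and 18 to 951, 1103 and 1831, and Usp18, which removes ISG15 and blocks the receptor, from 82, 103 and 100 to 11624, 12315 and 16066. Over the list, 20 of 27 were higher and 1 lower (18 and 4 after rescaling).

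Promoters of these genes are shown because they carry the motif of the pathway. The interferon-stimulated response element was searched as GAAA, any 2 bases and GAAA again, on either strand. Each line runs from 130 to 31 bases before the RefSeq start in GRCm38.p6, and capitals mark each match, with neighbouring matches that overlap joined. Isg15 (chr4:156200849-156200948, - strand) holds 3 overlapping matches, Ifit1 (chr19:34640759-34640858, + strand) holds 2, and Rsad2 (chr12:26456483-26456582, - strand), Gbp2 (chr3:142620533-142620632, + strand) and Gbp3 (chr3:142559914-142560013, + strand) hold 1 each in the stretch shown.
Isg15: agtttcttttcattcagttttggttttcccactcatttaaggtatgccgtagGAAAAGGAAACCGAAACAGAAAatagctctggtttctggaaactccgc
Ifit1: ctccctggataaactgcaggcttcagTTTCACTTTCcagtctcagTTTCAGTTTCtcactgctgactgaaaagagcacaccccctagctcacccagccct
Rsad2: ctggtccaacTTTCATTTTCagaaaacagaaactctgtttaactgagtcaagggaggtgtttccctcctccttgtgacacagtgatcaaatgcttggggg
Gbp2: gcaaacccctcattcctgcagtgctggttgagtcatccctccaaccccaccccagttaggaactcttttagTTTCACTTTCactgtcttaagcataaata
Gbp3: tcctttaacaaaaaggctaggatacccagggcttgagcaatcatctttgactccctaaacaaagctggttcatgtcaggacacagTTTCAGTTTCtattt

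Cxcl10 brings both kinds of site together. It attracts T cells through CXCR3, rose from 31, 25 and 15 to 49044, 45227 and 86174 (11.25 ± 0.31; adjusted p = 2.35e-07), and its stretch from 230 to 61 bases before the start (chr5:92348950-92349119, - strand) holds 1 interferon-stimulated response element, 2 kB matches and 1 AP-1 match (TGANTCA), in capitals and in that order.
Cxcl10: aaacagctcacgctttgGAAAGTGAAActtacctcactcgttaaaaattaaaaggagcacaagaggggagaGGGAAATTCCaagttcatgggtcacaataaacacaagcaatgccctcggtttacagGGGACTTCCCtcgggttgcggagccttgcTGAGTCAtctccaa

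Over all promoters, from 250 bases before to 50 after each RefSeq start, 9869 of the 13006 genes tested were matched, some to more than 1 promoter. The interferon-stimulated response element was found in 8.06% of 1750 promoters of genes that rose at least 2-fold, in 2.47% of 1825 promoters of genes that fell at least 2-fold, in 2.57% of those of held genes, in 3.26% of the 12603 promoters of all genes tested, and in 3.44% of all 32851 promoters of the table. It was found in 24 of 53 promoters of the antiviral list, of which 13 held an AP-1 match and 3 a kB match. The kB consensus was found in 7.54%, 4.55%, 4.48%, 5.24% and 4.51% of the same sets in that order, and AP-1 in 7.66%, 5.97%, 4.38%, 5.32% and 7.81%. A TATA box (TATAAA, gene strand only) was in 8.11%, 3.34%, 3.48%, 4.4% and 8.32%, and the GC box (GGGCGG) in 55.4%, 57.9%, 65.7%, 61.7% and 35.7%. The motif CCAAT was nearly level, at 35.5%, 38.5%, 37.6%, 37.5% and 37.4%, and the element TGACGTCA that binds CREB was in 2.34%, 1.97%, 3.61%, 2.98% and 1.79%. The CArG box, bound by serum response factor, was in 1.43%, 0.932%, 1.02%, 1.21% and 1.63%. These shares describe letters in a window and were not tested.

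Genes of antigen presentation by MHC class I rose. Of 21 members 19 were higher and none lower (18 and 2 after rescaling), at a median of 2.76. Tap1, a subunit of the peptide transporter, went from 750, 687 and 749 to 13785, 16607 and 18507, and Nlrc5, the activator of class I genes, from 362, 456 and 432 to 9556, 9547 and 13217. The immunoproteasome subunit genes Psmb8, Psmb9 and Psmb10 rose by 2.76 ± 0.12, 3.27 ± 0.20 and 3.38 ± 0.13. Abundant heavy chain genes rose little, H2-D1 from 72037, 71762 and 71706 to 87101, 107066 and 115290 with no call after rescaling (0.03), while the less abundant H2-Q7 rose from 90, 94 and 69 to 2391, 3560 and 3709. MHC class II genes showed smaller changes, 7 of 12 higher and 1 lower (5 and 2 after rescaling; median 0.85), and H2-Ab1 went from 983, 1084 and 2179 to 3375, 2964 and 6048 with Control and LPS libraries apart. Of 15 costimulatory and adhesion ligands 13 rose and 1 fell (12 and 2 after rescaling). Cd86 went from 118, 152 and 101 to 1650, 1994 and 1635, Cd274, which encodes the inhibitory ligand PD-L1, from 2368, 2711 and 2959 to 43221, 49585 and 55630, and Icam1 from 572, 516 and 434 to 15701, 33512 and 31359. The exception was Havcr2, the TIM-3 gene, which fell from 592, 619 and 497 to 30, 37 and 38 (-3.99 ± 0.16).

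Enzymes of effector metabolites were among the most induced genes of the table. Irg1, now called Acod1, makes itaconate from an intermediate of the TCA cycle and was 88, 114 and 69 in Control and 139538, 122135 and 181023 with LPS (10.67 ± 0.21; adjusted p = 7.29e-08). Nos2, the inducible nitric oxide synthase, was 2, 8 and 2 and 10411, 10173 and 14245. Genes that feed it rose as well: Slc7a2, an arginine transporter, from 1205, 3889 and 2115 to 48038, 81626 and 77823, Ass1, which recycles citrulline, from 164, 127 and 128 to 1743, 1381 and 2033, and Gch1, for its cofactor, from 536, 501 and 593 to 5246, 5427 and 6033. Arg1, the arginase gene, varied more within Control than between groups, at 887, 3605 and 396 and 1343, 453 and 79, and was not called (adjusted p = 0.263, and 0.0554 with the replicate block).

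Prostaglandin genes changed in opposite directions. Ptgs2 rose from 50, 60 and 69 to 15114, 49362 and 61849 and Ptges, the prostaglandin E synthase, from 178, 106 and 98 to 5254, 5543 and 4953, while Ptgs1 fell from 672, 859 and 843 to 450, 397 and 314 and Hpgds, the prostaglandin D synthase, from 2043, 2555 and 2555 to 481, 423 and 389. The leukotriene genes Alox5ap, Lta4h and Alox5 fell by 1.02, 1.11 and 1.79 on the log2 scale. Ch25h, which makes 25-hydroxycholesterol, rose from 16, 17 and 2 to 1190, 1417 and 1253, and Hdc, which makes histamine, from 26, 22 and 21 to 874, 1676 and 1957. In this list of 26 enzymes 14 were higher and 9 lower.

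Of 18 inflammasome and pyroptosis genes 11 rose and 3 fell (9 and 6 after rescaling). Nlrp3 went from 116, 191 and 177 to 6677, 10692 and 10863, Casp4, which senses intracellular LPS, from 163, 166 and 193 to 3721, 4062 and 4593, and Gsdmd, the pore-forming effector, from 899, 924 and 1073 to 3519, 3833 and 4305. Nlrp1b fell to 0, 3 and 4 from 70, 108 and 94. Of 16 BCL2 family genes 8 were higher and 5 lower (5 and 7 after rescaling). Bcl2a1d, a pro-survival copy, rose from 164, 191 and 219 to 3572, 4349 and 5900, and among pro-apoptotic members Bid and Bak1 rose by 1.38 ± 0.15 and 1.03 ± 0.12 while Bcl2l11 and Bmf fell by 1.41 and 3.09. The pro-survival gene Bcl2 fell by 0.58. The Bcl2a1 copies are near-identical and share reads.

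Oxidant genes were led by Sod2, mitochondrial superoxide dismutase, from 1147, 971 and 1023 to 25258, 19346 and 26857, and by Cybb, the catalytic subunit of the phagocyte NADPH oxidase, from 13240, 13913 and 13862 to 73316, 99574 and 95795. NRF2 targets were mixed, with 9 of 24 higher and 4 lower, which became 8 and 9 after rescaling. Slc7a11, the cystine transporter, rose from 312, 252 and 322 to 6633, 11399 and 12245, while Nqo1 was 21, 26 and 44 and 47, 21 and 44 and was not called, and Hmox1 rose by 0.71 ± 0.24 with a wide spread (6901, 6421 and 6087 and 16282, 8326 and 8635), and was not called after rescaling (0.22). The metallothionein gene Mt2 rose from 90, 79 and 50 to 2896, 1052 and 1998, and Slc39a14, a zinc and iron importer, from 395, 314 and 303 to 1726, 1883 and 2195.

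Glycolytic genes did not move as a block. Slc2a6, a hexose transporter, rose from 337, 393 and 251 to 16343, 20561 and 23554, Slc2a1 from 2394, 3345 and 1929 to 4834, 5566 and 4206, Hk2 from 1606, 2242 and 1491 to 5466, 7750 and 6018 and Pfkfb3 from 1443, 1780 and 1294 to 7764, 2835 and 4565. Ldha was 13921, 13781 and 9758 and 16892, 15078 and 13317 and was not called (adjusted p = 0.189, and 0.0415 with the replicate block), and Pkm and Gpi1 fell by 0.40 and 0.35. Of 24 members 11 were higher and 7 lower (7 and 10 after rescaling), and 12 were held within 2-fold. Hif1a, the oxygen-regulated factor, rose from 2033, 2076 and 2003 to 9099, 7885 and 9081 and its relative Epas1 fell from 5783, 7691 and 7808 to 2237, 2071 and 2234. The 20 HIF-1 regulators and targets gave 6 higher and 7 lower (3 and 12 after rescaling), and among the lower were the targets Vegfa, Ankrd37, Ndrg1, Pdk1 and Bnip3l.

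In the TCA cycle list 17 of 21 genes were held within 2-fold, with 6 higher and 6 lower (1 and 16 after rescaling). The largest fall in the list was of Idh1, from 4746, 4710 and 6040 to 865, 471 and 678 (-2.98 ± 0.22). It encodes the cytosolic isocitrate dehydrogenase, which is not part of the mitochondrial cycle. Idh2 and Suclg2 fell by 0.95 and 1.08. Of 72 nuclear-encoded respiratory chain genes 68 were held, 18 were higher and 6 lower (28 and 6 with the replicate block) and their median was 0.14, whereas rescaling to the same total gave 1 higher and 46 lower and a median of -0.35, so no direction can be given for this family. Cycs, the cytochrome c gene, rose under both, from 421, 327 and 411 to 1510, 1104 and 1537. Mitochondrially encoded transcripts had 1 of 11 called. Fatty acid oxidation genes were lower more often than higher under both scalings, 17 of 29 lower and 4 higher, and 24 lower and 3 higher after rescaling. Acaa2 went from 691, 590 and 651 to 246, 251 and 256, Hadh from 591, 576 and 622 to 269, 226 and 251 and the coactivator gene Ppargc1a from 45, 85 and 67 to 4, 6 and 4. Cpt1a, the entry step, was 2613, 2447 and 2974 and 2560, 1683 and 2542 and was not called (adjusted p = 0.233, and 0.0735 with the replicate block). The 4 members that rose were the acyl-CoA synthetase genes Acsl1, Acsl4 and Acsl5, which activate fatty acids for every use, and Acadl. Acsl1 went from 1273, 1257 and 1182 to 6779, 6727 and 7263. Acadl rose by 0.37 ± 0.11 on the deposited scale and was -0.12 after rescaling.

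Lipid storage genes were mostly lower. Of 20 lipid droplet and fatty acid handling genes 12 were lower and 4 higher (15 and 3 after rescaling), with a median of -0.63. Plin2, the main droplet coat gene, went from 25596, 24997 and 24922 to 11498, 12375 and 11151, and Soat1, which esterifies cholesterol, from 18788, 20736 and 19098 to 5248, 5636 and 4546. Lipa, the lysosomal acid lipase, went from 39089, 36212 and 44927 to 16595, 16244 and 17048. Pparg, the gene of a lipid-sensing transcription factor, went from 1232, 1230 and 1284 to 81, 123 and 109 (-3.59 ± 0.16). Cd36, a fatty acid and lipoprotein receptor, fell by 0.41, from 40346, 32725 and 36968 to 26396, 28348 and 27635. Fabp4 fell from 4567, 5258 and 6040 to 1237, 1141 and 975 and its relative Fabp3 rose from 43, 68 and 62 to 1563, 3042 and 2104. On the deposited scale sterol genes rose more often than they fell, 10 against 2 of 24. Their median log2 fold change there was 0.44, and it was -0.05 after rescaling, where 8 rose and 8 fell. Dhcr7, a late step of cholesterol synthesis, was among the 2 that fell, from 1502, 1115 and 1359 to 277, 118 and 170. The exporters moved apart, Abca1 from 1708, 2126 and 1201 to 7418, 6420 and 4586 and Abcg1 from 6382, 5618 and 5773 to 2094, 2762 and 2269. In fatty acid synthesis 5 of 18 were higher and 3 lower (1 and 8 after rescaling).

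The unfolded protein and ATF4 list had 7 of 25 higher and 6 lower (3 and 12 after rescaling). Hspa5, the lumenal chaperone BiP, rose from 9572, 7306 and 8453 to 21471, 16522 and 19349, and the sensor genes Atf6 and Eif2ak3 fell by 0.99 and 1.24. Lysosomal genes were lower in 15 of 39 and higher in 6, with a median of -0.28, and 33 were lower and 2 higher after rescaling. Tfeb, the regulator of lysosomal genes, fell from 1198, 1326 and 1399 to 418, 375 and 397, and Ctsc, the cathepsin C gene, rose from 2114, 2318 and 2011 to 15501, 9879 and 14601. The most abundant cathepsin genes were not called on the deposited scale: Ctsd was 353692, 426093 and 352821 and 215323, 308373 and 243307 (adjusted p = 0.117, and 0.0329 with the replicate block), Ctsb 322786, 334185 and 322241 and 249852, 308133 and 298559, and Ctss 123709, 134236 and 139468 and 113104, 137594 and 144156. After rescaling all 3 were called lower, at -1.06, -0.68 and -0.50 (adjusted p = 0.00623, 0.022 and 0.0245).

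Ribosomal protein genes were mostly held and proteasome genes were mostly higher. Of 79 cytosolic ribosomal protein genes 77 were held within 2-fold, 15 were higher and 1 lower (30 and 1 with the replicate block), their median was 0.16, and they became 0 higher and 50 lower after rescaling. Of 31 proteasome genes 29 were higher and none lower, at a median of 0.69, and 14 remained higher and 2 were lower after rescaling. The largest were the core subunits Psma5, from 743, 547 and 740 to 2475, 2103 and 2888, and Psma6, from 963, 838 and 1101 to 3813, 2541 and 4197. Mitochondrial ribosomal protein genes had 26 of 76 higher and 10 lower (7 and 43 after rescaling), and ribosome biogenesis genes 19 of 31 higher and 2 lower (8 and 10 after rescaling), with Myc called at 0.65 ± 0.28 from groups that overlap (207, 215 and 139 and 361, 342 and 194) and not called after rescaling (0.17).

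Proliferation genes had 13 of 37 lower and 8 higher, which became 23 and 6 after rescaling and 22 and 8 with the replicate block. Gmnn, whose product geminin restrains replication licensing, fell from 207, 203 and 201 to 58, 33 and 41, and E2f2, a cell cycle transcription factor, from 194, 172 and 185 to 14, 6 and 6. The mitotic cyclin gene Ccnb1 was 105, 115 and 61 and 78, 99 and 28 and was not called (adjusted p = 0.338, and 0.0517 with the replicate block). Among the 8 that rose were Ccnd2, a G1 cyclin, from 79, 60 and 53 to 5890, 7637 and 11990, the cell cycle inhibitor Cdkn1a from 1006, 1174 and 1013 to 17434, 23078 and 29165, and Mki67 from 246, 362 and 169 to 1046, 1892 and 1783.

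Macrophage identity factors moved in both directions, 13 of 27 higher and 11 lower (8 and 12 after rescaling). Cebpa fell from 6642, 6512 and 6237 to 852, 770 and 581 while its relative Cebpb rose from 4176, 3009 and 2976 to 15204, 11636 and 13902, and Maf rose from 1914, 2301 and 1918 to 6512, 2510 and 3990, a call lost after rescaling (0.50). Spi1, which encodes PU.1, rose from 5643, 5054 and 5750 to 11901, 9407 and 12310. The groups did not overlap for these genes. Rxra, Fli1, Runx2 and Bach2 fell by 1.25, 1.40, 1.60 and 3.06. Kruppel-like factors rose in 7 of 11 and fell in 3 (4 and 4 after rescaling), with Klf7 at 2.03 ± 0.11 and Klf6 going from 6238, 5812 and 6621 to 15543, 15610 and 21248. Circadian genes were lower in 9 of 17 and higher in 2 (12 and 1 after rescaling): the output factors Dbp and Tef fell from 90, 99 and 144 to 14, 10 and 7 and from 802, 1015 and 1008 to 195, 230 and 213, and Npas2 fell by 2.63. The time of day of the harvest is not stated.

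Receptors for chemoattractants were lower in 13 of 24 and higher in 8. Cxcr4, the receptor for CXCL12, fell from 1682, 2697 and 2496 to 38, 108 and 45 (-5.27 ± 0.38), Gpr183, the oxysterol receptor, from 184, 169 and 157 to 5, 9 and 4, and C5ar2 from 313, 175 and 277 to 44, 10 and 14. The formyl peptide receptor genes Fpr1 and Fpr2 went the other way, from 4, 1 and 1 to 1746, 521 and 1216 and from 3, 4 and 2 to 2086, 1419 and 2744. The low counts of Cxcr2 (38, 43 and 38 in Control and 2, 2 and 1 with LPS) and of Ccr2 (89, 65 and 73 and 30, 6 and 13) fell with LPS.

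Scavenger and C-type lectin receptors were evenly divided, 8 higher and 8 lower of 20 (7 and 9 after rescaling). Clec4e, the Mincle receptor for mycobacterial glycolipid, rose from 301, 393 and 405 to 46359, 80326 and 62416 (7.40 ± 0.21), Msr1 from 2896, 2729 and 3551 to 20707, 15617 and 20375 and Marco from 53, 75 and 51 to 1395, 585 and 1851, while Clec7a, the receptor for beta-glucan, fell from 8779, 10226 and 18909 to 5045, 7137 and 7289. Mrc1 was 3606, 3300 and 3216 and 2759, 3514 and 2886 and was not called. Genes for the uptake of dying cells were lower in 13 of 22, among them Itgb3, from 1597, 1298 and 1269 to 151, 242 and 203, and Lrp1, from 33890, 46827 and 33623 to 17089, 18547 and 14728. The receptor tyrosine kinase genes Axl and Mertk rose, from 1428, 1268 and 1216 to 11519, 13608 and 13574 and from 2199, 2416 and 2845 to 5859, 4905 and 8006, and their ligand gene Gas6 fell from 1337, 1003 and 1210 to 610, 407 and 398.

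Fc receptors rose in 6 of 9 and fell in 2 (5 and 3 after rescaling). The high-affinity Fcgr1 went from 688, 496 and 919 to 8081, 2264 and 5890, the inhibitory Fcgr2b from 3713, 7038 and 4389 to 11085, 14710 and 14051, and Fcgr3 fell from 4750, 5204 and 5876 to 3328, 2511 and 2916. Integrins gave 9 higher and 4 lower of 19 (9 and 9 after rescaling), with Itgal, the alpha chain of LFA-1, going from 1208, 2045 and 1801 to 10536, 14127 and 19881, Itga6 falling from 2388, 2278 and 2885 to 827, 530 and 583, and Itgam at 7501, 8027 and 7133 and 9011, 7025 and 6993, not called. Matrix metalloproteinase genes gave 8 higher and 4 lower of 18. Mmp13, a collagenase, rose from 137, 166 and 152 to 4627, 2807 and 6431 and Mmp14 from 3546, 2985 and 2055 to 26339, 26433 and 26545. Among regulators of G protein signalling Rgs1 rose from 1822, 1730 and 1265 to 4002, 5726 and 5797 and Rgs2 fell from 972, 852 and 1009 to 276, 146 and 178.

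The largest falls are given for genes with a Control mean of at least 100. Slco2b1, an organic anion transporter, was 294, 104 and 404 in Control and 3, 2 and 0 with LPS (-6.67 ± 0.66; adjusted p = 9.96e-05). Arhgap19, a GTPase-activating protein gene, fell from 1702, 1780 and 2283 to 43, 37 and 24 (-5.78 ± 0.23), and Cnr2, the cannabinoid receptor of immune cells, from 1017, 1075 and 1181 to 30, 33 and 17. No group overlapped. Lpin1, a phosphatidate phosphatase, fell from 726, 1042 and 913 to 29, 45 and 23 and Rasgrp3, a Ras activator, from 173, 439 and 387 to 8, 5 and 10. Cxcr4, Gpr183 and E2f2, given above, were also among the 12 largest of these falls, as were Galnt9, Nat8l and Ccsap, whose log2 fold changes were -4.89, -4.71 and -4.51. With a pseudocount of 1 the 12 largest rises among genes with an LPS mean of at least 100 were Il1b, Il12b, Il6, Nos2, Cxcl10, Il12a, Gbp5, Cxcl2, Irg1, Ccl5, Cxcl3 and Pydc4, the last from 1, 6 and 5 to 5656, 4733 and 6184.

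Genes used as references were not all steady. Hprt was 1292, 1011 and 1328 in Control and 1227, 897 and 1143 with LPS, with a 95% interval of -0.51 to 0.20 for the log2 fold change, and Tbp was 351, 376 and 413 and 333, 400 and 451 (-0.28 to 0.37). These intervals hold on the deposited scale. After rescaling to the same total Hprt was called lower and the log2 fold change of Tbp turned negative. Actb rose from 95983, 86905 and 84228 to 302835, 246368 and 324865 (1.70 ± 0.21) and B2m from 34614, 49794 and 39309 to 69868, 99899 and 88842, and their log2 fold changes after rescaling were 1.22 and 0.58. Gapdh, at 18279, 20058 and 14970 and 22749, 23684 and 20752, was called at 0.34 ± 0.14 on the deposited scale and was -0.14 after rescaling. The narrowest intervals belonged to genes such as Msl1, of a chromatin complex, at 1892, 1823 and 1822 and 1853, 1886 and 1878 (-0.15 to 0.20), and Scaf1, at 2106, 2200 and 2131 and 2260, 2317 and 2352 (-0.07 to 0.28). Of the 10 genes with the narrowest intervals 5 were called higher and 3 lower, all within 2-fold, so that narrow does not mean unchanged. Prpf38b, a splicing factor gene, rose by 0.74 ± 0.08, and Ppp2r4, which activates a phosphatase, fell by 0.59.

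Levels were compared between genes per kilobase of exon, with each library set to a sum of 1000000, and these levels carry no test. A common sum is a same-total scaling, so a level can fall where the normalized count on the deposited scale does not. The median level of held genes was 25.2 in Control and 17.9 with LPS. In Control the highest were Ftl1 at 36200 ± 7490 and Psap at 34600 ± 841, the ferritin light chain and the saposin precursor, followed by Ctsd at 31300 ± 3950 and Lyz2 at 25200 ± 1620 (SD, n = 3). Ftl1, Psap and Ctsd lay within the SD of Ftl1 of each other and cannot be ranked. With LPS the highest were Fth1, the ferritin heavy chain, at 21100 ± 924, and Ftl1, Lyz2 and Psap at 18800 ± 2550, 18500 ± 1950 and 17500 ± 484. Ftl1 lay within its SD of Fth1, Lyz2 and Psap and cannot be ranked against them. Of the 10 highest genes in Control 7 were also among the 10 highest with LPS. Gpnmb, Apoe and Ctsb left this group, and Actb, B2m and Ccl3 entered it. On the deposited scale Apoe was not called, with a log2 fold change of 0.043 (adjusted p = 0.874 in limma). After rescaling it was called lower, at -0.44 (adjusted p = 0.0679 in limma).

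Ccl3 rose from rank 918 in Control to rank 9 with LPS, at 146 ± 18.3 and 13400 ± 5830 per kilobase. Irg1, Ccl5, Il1a, Rsad2 and Il1b took ranks 13 to 17 with LPS, at 6660 to 7570 per kilobase, and in Control they held ranks from 3483 to 12060. Tnf and Isg15 were at 5050 ± 1590 and 5130 ± 814. The largest losses per kilobase among genes called lower were of abundant genes. Lgmn, a lysosomal protease, went from 2500 ± 172 to 1110 ± 66.8, Atp6v0d2, a subunit of the proton pump, from 1750 ± 177 to 423 ± 154, Rnh1, the ribonuclease inhibitor, from 1310 ± 130 to 291 ± 9.09, Ctsk, the cathepsin K gene, from 1850 ± 193 to 868 ± 240, and Fabp5 from 1610 ± 44.3 to 624 ± 43.3. The ferritin light chain gene Ftl1 was not called on its normalized counts of 295233, 192845 and 259607 and 191199, 158418 and 208913 (adjusted p = 0.23, and 0.0802 with the replicate block), nor was Psap, at 495980, 475251 and 493664 and 326527, 363271 and 378716 (adjusted p = 0.204, and 0.0896 with the block).

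**Figure D5:**
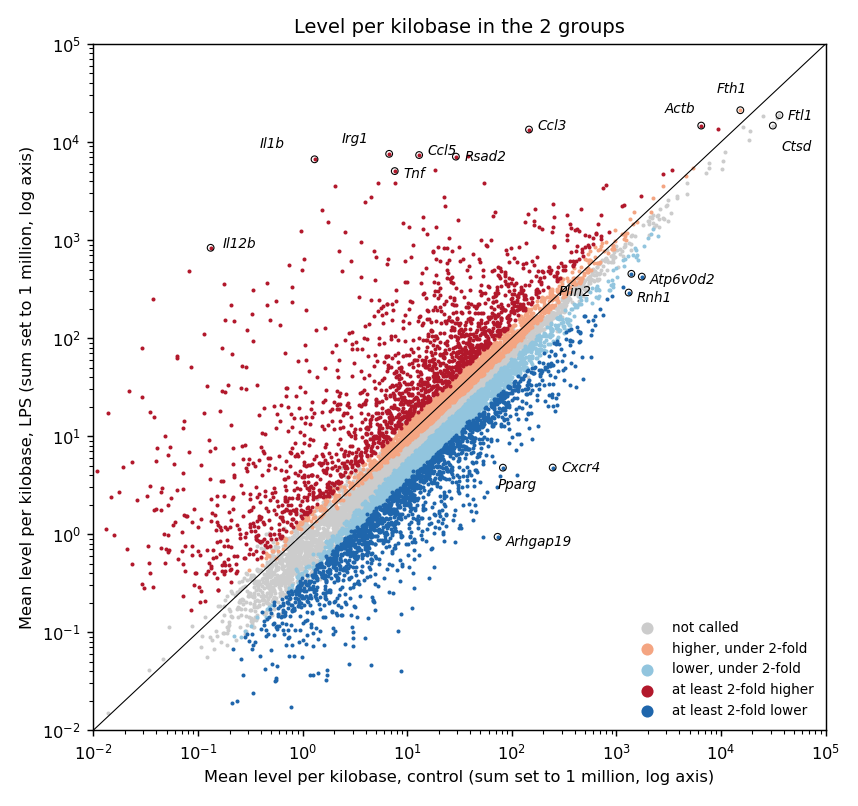
Mean level per kilobase of exon in Control (x) and with LPS (y), each library set to a sum of 1000000, log axes, genes coloured by class of the test on normalized counts, and the line of equal level. Il1b, Irg1, Ccl5, Tnf and Rsad2 lie far above the line, and Ftl1, Psap and Ctsd, the highest in Control, lie under it. The common sum also lowers the LPS level of genes whose normalized count was held.

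The direction of the response was then read in libraries that had no part in the test, those of cells loaded with oxidized LDL with and without LPS, 3 of each. Of the 1896 genes that rose at least 2-fold, 1804 were tested there, 1801 had a positive log2 fold change and 1712 were called higher, where 28.1% of all genes were called higher. Of the 1783 that fell at least 2-fold, 1748 were tested, 1746 had a negative log2 fold change and 1602 were called lower. In these loaded libraries 26.3% of all genes were called lower. The methods describe cells pooled and divided among the groups, so the loaded libraries may share their pools with Control and LPS. The shared direction therefore cannot be taken as a check on independent cells.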

How the data were processed

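Thioglycolate-elicited PMφs were sequenced as 12 poly(A) libraries, of which the 3 Control and 3 LPS libraries were compared here. The deposited signal values are gene counts that the authors divided by 1 factor per library and rounded, so they are scaled counts and a count model was not run. Reads had been trimmed with Trimmomatic 0.32, aligned to mm10 with STAR 2.5.1b, and assigned to genes with featureCounts. Use of strand in counting is not given in the sources used here, so overlapping and antisense genes are uncertain.

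Genes that reached 10 in 3 or more of these 6 libraries were kept and log2(value + 1) was tested with limma 3.58.1 (R 4.3.3; moderated with a trend, two-sided), at a Benjamini-Hochberg adjusted p under 0.1. The methods were tested on simulated data. No source ties a library to its own animals, so p-values measure the spread between these libraries. A gene was called held when its 95% interval lay within 2-fold.

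Replicate numbers come from the sample titles. Deviations from the group mean correlated at 0.358, 0.414 and 0.552 for same-numbered libraries, and at -0.393 to 0.028 for different numbers. The deviations of a group sum to 0 for each gene, so the low values for different numbers are partly forced. Xist differed within number 1, as given above, so the pairing is uncertain. The main fit therefore has no block, and a fit with the replicate block was run as an alternative. Other alternatives were other filters, pseudocounts, scalings, thresholds, a fit without the trend, a fit over all 12 libraries and leaving out each library.

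Genes named were those the study measured singly, the 12 largest rises and falls, the highest and most changed levels per kilobase, the 10 narrowest intervals, and the key and lowest-p members of each list. Of the 289 tested genes named, 38 fall outside this rule and were named after their values were seen. The members and lists were chosen with earlier results of these data known. Positions and exon lengths are from GENCODE vM21 on GRCm38, a later release than the authors' vM4, and promoters from RefSeq on GRCm38.p6. A symbol turned into a date by a spreadsheet was left out, which removed 25 symbols. Some genes are not reported here.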

Additional observations from a re-analysis of the deposited data

How the results depend on the processing

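Over every alternative run, the count of genes that rose at least 2-fold lay between 1309 and 2297 and the count of held genes between 5098 and 7180. Rescaling to the same total moved the number of genes higher with LPS to 2207, of genes lower to 7189 and of genes at least 2-fold lower to 3324, and no other alternative moved one of these 5 counts by over 1.5 times. Leaving out each library in turn gave 3394 to 3807 genes higher, 3195 to 3871 lower, 1560 to 1891 at least 2-fold higher, 1516 to 1917 at least 2-fold lower and 5635 to 6036 held. With the replicate block 4501 genes were higher and 4433 lower, 1915 and 1842 by at least 2-fold, and 6933 were held. Among the genes named, the block gave a call to those whose value with it stands in the report and to Csf1r (adjusted p = 0.0516 in limma), and changed no other call. The log2 fold change turned negative after rescaling for Acadl (-0.12), Apoe (-0.44), Atf3 (-0.13), Ccl6 (-0.081), Ddx3y (-0.27), Gapdh (-0.14), Irf8 (-0.33), Itgam (-0.47), Ldha (-0.20), Ly96 (-0.10), Lyz2 (-0.41), Msl1 (-0.46), Nqo1 (-0.19), Scaf1 (-0.38), Tbp (-0.44) and Tmem173 (-0.059). Rescaling also ended the call of Ccl8 (0.107), Dusp1 (0.79), H2-D1 (0.865), Hmox1 (0.516), Kit (0.125), Maf (0.221), Myc (0.663) and Tnip2 (0.352), and gave a call, as lower, to Cd68 (0.0104), Cpt1a (0.00697), Csf1r (0.011), Ctsb (0.022), Ctsd (0.00623), Ctss (0.0245), Ftl1 (0.0126), Gpnmb (0.0304), Hprt (0.0108), Irf3 (0.0012), Mrc1 (0.00249), Psap (0.00833) and Ticam1 (0.000513), with adjusted p-values in limma. Both lists leave out the genes whose sign turned. Among those, Apoe was called lower after rescaling (0.0679), and Acadl (0.286) and Atf3 (0.28) were no longer called. In a fit over all 12 libraries calls were lost for Cd36 (0.113), Cxcl12 (0.114), Hmox1 (0.217) and Tmem173 (0.177). With no filter on low values calls were lost for Cxcl12 (0.137), Gapdh (0.115), Myc (0.122), Pdgfb (0.102), Tlr4 (0.125) and Tmem173 (0.121). Without the trend calls were lost for Cxcl12 (0.136), Myc (0.116), Pdgfb (0.101), Tlr4 (0.127) and Tmem173 (0.119). At an adjusted p under 0.05 calls were lost for Bcl2 (0.0513), Cxcl12 (0.0901), Gapdh (0.0725), Myc (0.0808), Pdgfb (0.067), Tlr4 (0.0799) and Tmem173 (0.0791). Calls were gained by Arg1 without LPS replicate 1 (0.0864), Ccl6 without LPS replicate 2 (0.0298), Ctsd with 10 required in all 6 libraries (0.0809), Ctsd over all 12 libraries (0.0639), Ctsd without the trend (0.0304), Ctsd without LPS replicate 2 (0.0696), Mrc1 without LPS replicate 2 (0.0611) and Psap without the trend (0.0109). With a pseudocount of 10 the sign turned for Ddx3y (-0.33). The sign depended on a single library for genes that were not called, and their log2 fold change over the fits that leave out 1 library was -0.03 to 0.15 for Apoe, -0.17 to 0.091 for Cd68, -0.70 to 0.65 for Col1a1, -0.085 to 0.09 for Ctss, -3.17 to 2.63 for Ddx3y, -0.30 to 0.27 for Egr1, -0.13 to 0.30 for Irf8, -0.11 to 0.077 for Itgam, -0.065 to 0.16 for Lyz2 and -0.055 to 0.16 for Tbp. Calls were lost for some named genes when 1 library was left out, with these adjusted p-values in limma. Without Control replicate 1 they were 0.106 for Atf3, 0.143 for Bcl2, 0.117 for Cd36, 0.257 for Cxcl12, 0.132 for Gapdh, 0.115 for H2-D1, 0.134 for Kit, 0.153 for Ly96, 0.107 for Myc, 0.178 for Pdgfb, 0.14 for Pkm, 0.123 for Tlr4 and 0.168 for Tmem173. Without Control replicate 2 they were 0.102 for Acadl, 0.161 for Atf3, 0.164 for Bcl2, 0.108 for Ctsk, 0.207 for Cxcl12, 0.132 for Dusp1, 0.124 for Gpi1, 0.106 for H2-D1, 0.11 for Pdgfb, 0.106 for Pkm, 0.158 for Tlr4, 0.106 for Tmem173 and 0.15 for Vegfa. Without Control replicate 3 they were 0.12 for Ccl27a, 0.259 for Gapdh, 0.114 for H2-D1, 0.105 for Hmox1, 0.225 for Myc, 0.114 for Pdgfb, 0.193 for Tlr4 and 0.183 for Tmem173. Without LPS replicate 1 they were 0.112 for Gapdh, 0.213 for Myc, 0.202 for Tlr4 and 0.128 for Tmem173. Without LPS replicate 2 they were 0.167 for Cxcl12, 0.153 for Gapdh, 0.146 for Kit, 0.107 for Ly96, 0.202 for Myc and 0.188 for Tmem173. Without LPS replicate 3 they were 0.131 for Atf3, 0.137 for Bcl2, 0.262 for Cxcl12, 0.104 for Gpi1, 0.112 for H2-D1, 0.134 for Ly96, 0.107 for Pdgfb, 0.12 for Pkm and 0.184 for Tlr4. The count of reads behind each value limits genes under about 10 in a group, whose fitted changes vary most with the pseudocount. Group sizes of 3 and an LPS treatment whose exact length is not stated limit every comparison, and RNA content per cell was not measured.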

Other observations

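Genes that rose at least 2-fold lay together in some windows of 1000000 bases (GRCm38). The windows given are among those that held the most such genes. Of all genes tested, 14.6% rose and 13.7% fell at least 2-fold. On chromosome 11, from 83000001 to 84000000, 18 of 25 tested genes rose at least 2-fold and none fell as far, among them Ccl3, Ccl4, Ccl5 and Ccl9 and the Schlafen genes Slfn1, Slfn2, Slfn3, Slfn4 and Slfn8. On chromosome 1, from 85000001 to 86000000, 14 of 16 rose, including Sp100, Sp110 and Sp140, whose products are nuclear body proteins. On chromosome 17, from 34000001 to 35000000, 16 of 48 rose and 3 fell, among the former Tap1, Psmb8, Psmb9, Cfb and H2-Ab1 of the major histocompatibility complex. These windows hold gene families with similar copies, and reads shared among copies could raise such counts, which was not tested.

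Transcripts that are not coding behaved differently by type. Of 11956 protein-coding genes tested, 14.1% rose and 13.4% fell at least 2-fold. Of 163 long intergenic transcripts 25 (15.3%) rose and 46 (28.2%) fell. Of 200 antisense transcripts 49 (24.5%) rose and 46 (23%) fell, and of 191 processed pseudogenes 44 (23%) rose and 12 (6.28%) fell. These types were assigned by GENCODE vM21, and for antisense transcripts reads of the partner gene could not be told apart.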
